A study of Homo sapiens with 12 samples.

Results

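The 10 genes described here are members of the Notch signalling pathway, chosen by name: the receptors NOTCH1, NOTCH2 and NOTCH3, the ligands JAG1, JAG2, DLL1 and DLL3, and the target or HES-family genes HES1, HES6 and HEY1. Each symbol matched 1 row of the deposited gene table through its Ensembl identifier and GENCODE release 29, giving 10 of 58051 rows, and all 10 were among the 17774 genes that passed the filter on low counts. The genes were measured in NB-1, an established human neuroblastoma line, by sequencing of polyadenylated RNA after 48 h of treatment. The 4 groups of 3 libraries received 0.5 µM BEZ-235 and 0.5 µM SAHA together (the combination), 0.5 µM BEZ-235 alone, 0.5 µM SAHA alone, or DMSO, the solvent control. BEZ-235 (dactolisib) inhibits PI3K and mTOR kinases, and SAHA (vorinostat) inhibits histone deacetylases. All groups were grown in the same serum-containing medium, and all results rest on 1 cell line. The labels call the replicates biological without saying how they were separated, so p-values measure the spread between these libraries.

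Notch receptors are single-pass membrane proteins that bind Jagged and Delta-like ligands on a neighbouring cell. Binding leads to cleavage by ADAM proteases and gamma-secretase, and the freed intracellular domain joins the DNA-binding protein RBPJ in the nucleus, where it turns on HES and HEY genes. HES and HEY proteins are repressors that hold back proneural factors in the developing nervous system. In neuroblastoma, Notch activity, that of NOTCH3 among them, is known for moving cells from the adrenergic towards the mesenchymal state. DLL3 differs from the other ligands in that it inhibits Notch within its own cell and does not activate it on a neighbour, and HES6 differs from HES1 in that, in mouse, it opposes HES1 and promotes neuronal differentiation.

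The libraries held 17662944 to 79543539 counts, with SAHA replicate 2 the deepest. All 13 adrenergic neuroblastoma markers checked passed the filter, and their summed level in CPM, counts scaled to the library size, was 1974 to 2531 with the combination, 1629 to 1847 with BEZ-235, 1635 to 1791 with SAHA and 1742 to 2027 with DMSO. SOX10, a Schwann cell marker, was at 0 in every library, and the summed leukocyte and endothelial markers stayed at or under 2.46 and 5.11 CPM. Libraries differed in how GC-rich transcripts were represented. Each gene's log2 level was set against its mean over all libraries. The median of genes of at least 57.8% GC was then taken minus the median of genes of at most 40.9% GC. This difference was 0.43, 0.73 and 0.99 in replicates 1 to 3 of the combination and -0.025, -0.33 and -0.50 with BEZ-235. It was -0.22, -0.36 and -0.42 with SAHA, and -0.041, 0.059 and -0.30 with DMSO. HES6, DLL3, JAG2, NOTCH3, NOTCH1 and DLL1 have transcripts of 58.3 to 68.4% GC, above those of 81.5 to 99.4% of tested genes, whereas HES1, JAG1, NOTCH2 and HEY1 lie between 47.3 and 49.9% GC. The part of this trend in the results was not tested, and it cannot be told apart from the combination, so results whose call, direction or size it alters most are also given after a correction that removes each library's trend with GC content and transcript length. In RNA from whole cultures, fewer cells that express a gene and less of its RNA per cell cannot be told apart.

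**Figure D1:**
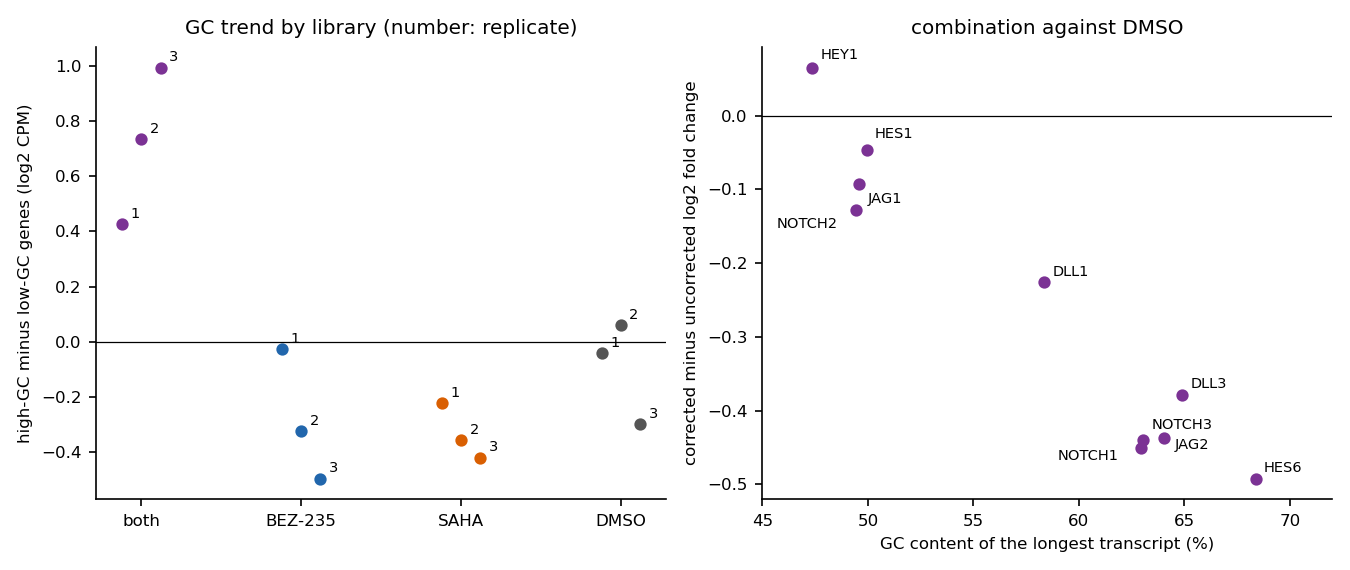
The left panel plots, for each of the 12 libraries, the log2 level of GC-rich genes minus that of GC-poor genes, and the right panel plots each member's transcript GC content in percent against the change in its log2 fold change (combination against DMSO) when the GC and length correction is applied. The combination libraries sit highest at 0.43, 0.73 and 0.99, and the correction lowers the fold changes of the GC-rich members.

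NOTCH3 and JAG1 were higher than DMSO with the combination and with SAHA, and lower with BEZ-235. NOTCH1 was lower than DMSO in every treatment, and HEY1 and NOTCH2 were lowest in the groups that received BEZ-235. HES6 was lowest with BEZ-235 alone. Intervals of 95% are those of single genes, without adjustment. Genes are counted that had a Benjamini-Hochberg adjusted p under 0.05 over all 17774 genes in edgeR's 2-sided quasi-likelihood test. With BEZ-235 against DMSO, 8 of the 10 genes passed and all 8 fell, where 50.9% of all tested genes passed and 25.4% fell. The correction left this at 8 lower, where 56.4% of all tested genes passed and 27.7% were lower. With SAHA against DMSO, 2 rose and 5 fell, where 43.1% of all tested genes passed, 22.2% upward and 20.9% downward, and after the correction 3 were higher and 4 lower, where 49.8% of all tested genes passed, 26.7% upward and 23.1% downward. With the combination against DMSO, 3 rose and 4 fell, where 64.4% of all tested genes passed, 33.2% upward and 31.2% downward, so this count was close to that of all genes. After the correction all 10 passed, 3 higher and 7 lower, where 65.7% of all tested genes passed, 35.3% upward and 30.3% downward. The median log2 fold change of the 10 genes was -0.81, -0.25 and -0.26 for BEZ-235, SAHA and the combination against DMSO, beside medians of 0.017, -0.0054 and 0.034 over all tested genes. After the correction the medians of the 10 genes were -0.82, -0.019 and -0.41, so that of SAHA was near 0. These 3 comparisons share the DMSO libraries. With the combination against BEZ-235, 7 genes rose, where 58% of all tested genes passed and 29.5% were higher, and after the GC and length correction 4 were higher and 1 was lower, where 55.8% of all tested genes passed, 29.3% upward and 26.5% downward. With the combination against SAHA, 4 rose and 5 fell, where 58.8% of all tested genes passed, 29.9% upward and 28.9% downward. After the correction 2 were higher and 7 lower, where 52.6% of all tested genes passed, 26.6% upward and 26% downward.

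**Figure D2:**
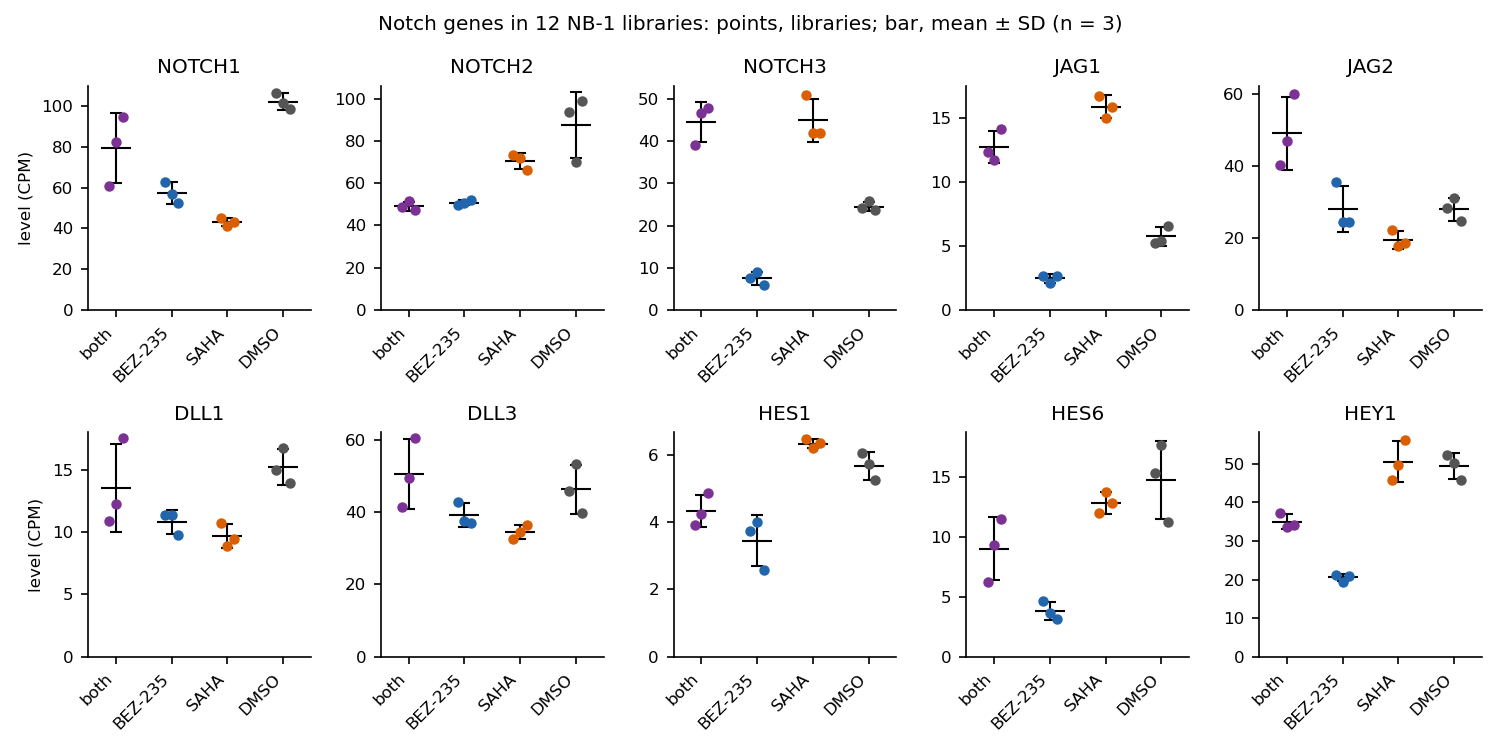
Each panel plots 1 gene's level in CPM in the 12 libraries, with the groups in the order combination, BEZ-235, SAHA and DMSO, and with points for libraries and bars for the mean ± SD of 3. NOTCH3 lies between 39.1 and 47.8 CPM with the combination, 5.97 and 8.98 CPM with BEZ-235, 42.0 and 50.8 CPM with SAHA and 23.8 and 25.7 CPM with DMSO, and for JAG1, too, the BEZ-235 libraries are lowest and the DMSO libraries come next.

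Levels of different genes were set side by side as CPM per kilobase of exon. With DMSO, the order of these per-kilobase levels was DLL3 at 17.7 ± 2.62, HEY1 at 15.3 ± 1.05, NOTCH1 at 9.85 ± 0.40, HES6 at 7.25 ± 1.59, NOTCH2 at 5.21 ± 0.93, DLL1 at 4.73 ± 0.44, JAG2 at 4.39 ± 0.50, HES1 at 2.75 ± 0.20, NOTCH3 at 2.61 ± 0.11 and JAG1 at 0.618 ± 0.077 CPM per kilobase (SD, n = 3). In that order the library ranges of neighbours overlapped between DLL3 and HEY1, from HES6 through NOTCH2 and DLL1 to JAG2, and between HES1 and NOTCH3, so those neighbours did not differ beyond their spread. JAG1 was last in all 4 groups, at 1.37 ± 0.13 CPM per kilobase with the combination, 0.266 ± 0.036 with BEZ-235, 1.71 ± 0.10 with SAHA and 0.618 ± 0.077 with DMSO. NOTCH3 moved up this order with SAHA, where its 4.78 ± 0.54 CPM per kilobase was the fourth and did not overlap NOTCH2 at 4.20 ± 0.23 or NOTCH1 at 4.16 ± 0.18. Of the summed per-kilobase level of the 3 receptors, NOTCH3 made up 31.1 ± 1.18% with the combination, 8.49 ± 1.47% with BEZ-235, 36.3 ± 1.73% with SAHA and 14.8 ± 1.39% with DMSO (SD, n = 3). NOTCH1 made up 49.6 ± 4.11% of that sum with the combination, 59.1 ± 2.39% with BEZ-235, 31.7 ± 1.29% with SAHA and 55.8 ± 2.85% with DMSO. Hence, by exon length merged over transcripts, NOTCH1 was the leading receptor transcript per kilobase in every group except SAHA, where NOTCH3 led. The place of NOTCH3 before NOTCH2 with SAHA depends on the length used. Merged exons span 16807 bases in NOTCH2, whose longest transcript has 11389, against 9394 and 8666 in NOTCH3. Mean CPM with SAHA, not divided by length, was 70.6 for NOTCH2 and 44.9 for NOTCH3. DLL3 made up 59.4 ± 0.94% of the summed ligand level with the combination, 65.2 ± 1.43% with BEZ-235, 63.0 ± 3.29% with SAHA and 64.4 ± 1.34% with DMSO, the most of any ligand in each group. These shares are descriptions without a test, and they carry the GC trend described above.

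NOTCH3 (ENSG00000074181, hg38 chromosome 19, 15159038 to 15200981, minus strand) is the receptor most often named in mesenchymal neuroblastoma cells. Its level was 39.1, 46.6 and 47.8 CPM in the 3 combination libraries, 7.50, 8.98 and 5.97 CPM with BEZ-235, 50.8, 42.0 and 42.0 CPM with SAHA and 24.1, 25.7 and 23.8 CPM with DMSO. The combination and SAHA libraries overlapped each other and lay above all DMSO libraries, and all BEZ-235 libraries lay below them. Against DMSO, the log2 fold change was 0.86 ± 0.12 (SE) with the combination (adjusted p = 1.01e-05), -1.72 ± 0.14 with BEZ-235 (adjusted p = 2.95e-08) and 0.87 ± 0.12 with SAHA (adjusted p = 2.31e-05). The combination was 5.99-fold higher than BEZ-235 alone, a log2 fold change of 2.58 ± 0.14 (adjusted p = 6.02e-10), which was 2.03 after the GC and length correction. Between the combination and SAHA alone the log2 fold change was -0.0087 ± 0.12 with a 95% interval of -0.26 to 0.24 (adjusted p = 0.954). With the GC and length correction, the combination was lower than SAHA by a log2 fold change of -0.62 (adjusted p = 6.86e-06), and its rise over DMSO was 0.42 (adjusted p = 0.000384).

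The 3 genes whose log2 CPM was most like that of NOTCH3 over the 12 libraries, among 10708 other genes of mean log2 CPM of at least 3, were ADCY3 (Pearson r = 0.990), ABHD15 (r = 0.989) and NECTIN2 (r = 0.988). NECTIN2, a cell adhesion protein, averaged 35.6 CPM with the combination, 8.53 CPM with BEZ-235, 35.3 CPM with SAHA and 19.0 CPM with DMSO. The libraries share their treatment groups, so these values describe likeness of pattern and carry no p. Fibroblast markers (COL1A1, COL1A2, COL3A1, DCN, LUM, PDGFRA, PDGFRB and THY1, none of them at 0 in every library) had a summed level of 174 to 196 CPM with the combination, 36.9 to 41.6 with BEZ-235, 419 to 470.2 with SAHA and 106 to 116 with DMSO, the same order of groups as JAG1. LUM alone made up most of that sum with SAHA, at 313 to 334 CPM. Other markers had other orders, with COL1A1 highest with the combination (15.7 to 23.9 CPM) and COL1A2 and PDGFRA lower with the combination than with DMSO. Of these 8, 4 rose and 3 fell with the combination, 3 fell with BEZ-235 and 5 rose with SAHA, each against DMSO, where 64.4%, 50.9% and 43.1% of all tested genes passed. Schwann cell markers, 8 in all of which 6 were tested, had a summed level of 333 to 346 CPM with the combination, 304 to 344 with BEZ-235, 312 to 339 with SAHA and 187 to 196 with DMSO, and 4 rose with the combination, 2 rose and 1 fell with BEZ-235 and 4 rose with SAHA, beside the same shares of all genes. Nearly all of that sum was PMP22, a gene expressed in many cell types, at 322 to 336 CPM with the combination and 184 to 192 CPM with DMSO. The part of these markers in the results was not tested.

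JAG1 (ENSG00000101384, chromosome 20, 10637684 to 10673999, minus strand) encodes a Jagged ligand that can activate NOTCH1, NOTCH2 and NOTCH3. Its promoter is shown with that of NOTCH3 because these genes moved together in the 3 comparisons against DMSO. Each sequence holds the 250 bases before the RefSeq transcription start on GRCh38.p14, written 5′ to 3′ on the gene's own strand, at chr20:10674000-10674249 (minus strand) for JAG1 and chr19:15200996-15201245 (minus strand) for NOTCH3.
JAG1 promoter: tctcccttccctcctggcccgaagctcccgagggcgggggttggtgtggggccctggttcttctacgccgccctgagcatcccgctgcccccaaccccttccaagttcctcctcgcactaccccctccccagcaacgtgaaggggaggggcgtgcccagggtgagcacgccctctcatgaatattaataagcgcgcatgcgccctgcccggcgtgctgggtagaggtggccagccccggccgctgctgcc
NOTCH3 promoter: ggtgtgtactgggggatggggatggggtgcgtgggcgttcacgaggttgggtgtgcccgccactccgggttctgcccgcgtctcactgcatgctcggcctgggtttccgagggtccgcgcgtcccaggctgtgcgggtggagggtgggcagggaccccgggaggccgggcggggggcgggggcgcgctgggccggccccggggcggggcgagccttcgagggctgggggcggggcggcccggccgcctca
Neither window holds TGGGAA, the core bound by RBPJ, on either strand, which says only that these letters are not in these windows. JAG1 was at 12.4, 11.7 and 14.1 CPM with the combination, 2.68, 2.08 and 2.66 CPM with BEZ-235, 16.8, 14.96 and 15.9 CPM with SAHA and 5.27, 5.41 and 6.58 CPM with DMSO. No pair of groups overlapped, and the BEZ-235 libraries, at 39 to 62 counts each, were the lowest. Relative to DMSO, JAG1 rose 2.21-fold with the combination (log2 fold change 1.15 ± 0.13, adjusted p = 1.21e-06) and 2.74-fold with SAHA (log2 fold change 1.46 ± 0.13, adjusted p = 2.67e-07). It fell with BEZ-235, with a log2 fold change of -1.21 ± 0.15 (adjusted p = 6.36e-06). The combination was 5.13-fold higher than BEZ-235 alone (log2 fold change 2.36 ± 0.15, adjusted p = 3.03e-09). The combination was slightly lower than SAHA alone, at -0.31 ± 0.12 (adjusted p = 0.0389). That call was lost without any 1 of SAHA replicates 1, 2 and 3 or combination replicates 1 and 2 (adjusted p up to 0.0950). JAG1 has 49.6% GC, and the correction kept all of its calls against DMSO, at 1.05 with the combination, -1.29 with BEZ-235 and 1.41 with SAHA. The genes most like JAG1 over the 12 libraries were NEFM, a neurofilament subunit (r = 0.993), SRGAP2 (r = 0.991), which has near-identical copies so that its reads may be shared, and APLP2 (r = 0.989). Between NOTCH3 and JAG1 themselves r was 0.953, again a description without a p.

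NOTCH1 (ENSG00000148400, chromosome 9, 136494433 to 136545786, minus strand) encodes the most widely studied Notch receptor. It was at 60.8, 82.6 and 94.5 CPM with the combination, 63.0, 56.9 and 52.4 CPM with BEZ-235, 45, 41.3 and 43.2 CPM with SAHA and 107, 102 and 98.4 CPM with DMSO. The DMSO libraries were above all treated ones, the SAHA libraries were the lowest, and the combination libraries were spread widely and overlapped those of BEZ-235. NOTCH1 fell in each treatment against DMSO, with log2 fold changes of -0.36 ± 0.12 with the combination (adjusted p = 0.0141), -0.83 ± 0.12 with BEZ-235 (adjusted p = 3.27e-05) and -1.24 ± 0.12 with SAHA (adjusted p = 8.41e-07). The value for the combination was -0.22 without combination replicate 1 (adjusted p = 0.0434) and -0.81 after the GC and length correction. The combination was higher than SAHA alone by 0.88 ± 0.12 (adjusted p = 1.49e-05), a value of 0.26 after the correction (adjusted p = 0.000935). It was higher than BEZ-235 alone by 0.47 ± 0.12 (adjusted p = 0.00369), but the correction turned that value to -0.086 and ended the call (adjusted p = 0.211). The order of the combination libraries in NOTCH1, replicate 1 below 2 below 3, is also their order in the GC trend, as it is for NOTCH3, JAG2, DLL1, DLL3 and HES6 and for HES1, which is not GC-rich.

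NOTCH2 (ENSG00000134250, chromosome 1, 119911553 to 120069626, minus strand) encodes the receptor whose human locus gave rise to the partial copies of the NOTCH2NL family. It shares sequence with NOTCH2NLA, which reached at most 3.31 CPM, so a small part of its reads may be assigned between them. NOTCH2 was at 48.6, 51.4 and 47.3 CPM with the combination, 49.5, 50.8 and 52.1 CPM with BEZ-235, 73.5, 72.1 and 66.1 CPM with SAHA and 93.8, 69.9 and 99.1 CPM with DMSO. Both groups with BEZ-235 lay below all SAHA and DMSO libraries, while the SAHA and DMSO libraries overlapped through DMSO replicate 2. Relative to DMSO, NOTCH2 fell by a log2 value of 0.83 with the combination (SE 0.11, adjusted p = 3.15e-06) and by 0.79 with BEZ-235 (SE 0.11, adjusted p = 1.18e-05). For SAHA the log2 fold change was -0.31 ± 0.10 (adjusted p = 0.0216). This call was lost without DMSO replicate 1, DMSO replicate 3 or SAHA replicate 3, being -0.22 (adjusted p = 0.116) without DMSO replicate 3. After the GC and length correction, with all libraries, the SAHA value was -0.43 (adjusted p = 4.03e-05). The combination and BEZ-235 alone differed by -0.049 ± 0.11, with a 95% interval of -0.27 to 0.18 (adjusted p = 0.717), whereas the combination was lower than SAHA alone by 0.52 (SE 0.10, adjusted p = 0.000444).

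JAG2 (ENSG00000184916, chromosome 14, 105140981 to 105168824, minus strand), the second Jagged ligand, was at 40.2, 47.0 and 60.1 CPM with the combination, 35.6, 24.4 and 24.4 CPM with BEZ-235, 22.2, 17.7 and 18.6 CPM with SAHA and 28.4, 31.1 and 24.7 CPM with DMSO. The combination libraries were above all others and the SAHA libraries below all others, while those of BEZ-235 and DMSO overlapped. JAG2 rose with the combination against DMSO (log2 fold change 0.81 ± 0.17, adjusted p = 0.000693), against BEZ-235 alone (0.81 ± 0.17, adjusted p = 0.000883) and against SAHA alone (1.34 ± 0.17, adjusted p = 1.11e-05). After the GC and length correction these values were 0.37 (adjusted p = 0.00154), 0.21 (adjusted p = 0.0618) and 0.64 (adjusted p = 1.2e-05), so the call against BEZ-235 was lost. JAG2 was lower with SAHA than with DMSO, at -0.54 ± 0.17 (adjusted p = 0.0197). It no longer passed without DMSO replicate 1, DMSO replicate 2, SAHA replicate 2 or SAHA replicate 3 (adjusted p up to 0.0829), and the correction moved the value to -0.27 (adjusted p = 0.0212). For BEZ-235 against DMSO the log2 fold change was 0.0020 ± 0.17, with a 95% interval of -0.36 to 0.37 (adjusted p = 0.993).

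DLL1 (ENSG00000198719, chromosome 6, 170282206 to 170306565, minus strand) encodes a Delta-like ligand that activates Notch in neighbouring cells during neurogenesis. Its gene overlaps FAM120B on the opposite strand, which reached 70.4 CPM. Although the library kit marks strand, the strand setting of the counting is not given in the sources used here, so the DLL1 counts are uncertain. DLL1 was at 10.9, 12.3 and 17.6 CPM with the combination, 11.4, 11.4 and 9.75 CPM with BEZ-235, 10.7, 8.88 and 9.47 CPM with SAHA and 15.03, 16.8 and 13.9 CPM with DMSO. All BEZ-235 and SAHA libraries were below all DMSO libraries, and the combination libraries overlapped those of BEZ-235 and those of DMSO and began just above the highest SAHA library. DLL1 fell with SAHA against DMSO (-0.66 ± 0.15, adjusted p = 0.00222) and with BEZ-235 (-0.49 ± 0.16, adjusted p = 0.0143). The call for BEZ-235 was lost without DMSO replicate 2 or BEZ-235 replicate 3 (adjusted p up to 0.0598). For the combination against DMSO the value was -0.16 ± 0.15, with a 95% interval of -0.49 to 0.16 (adjusted p = 0.373). It passed the test at -0.39 after the GC and length correction (adjusted p = 0.00830) and at -0.41 without combination replicate 3 (adjusted p = 0.0159). The combination was higher than SAHA alone by 0.50 ± 0.15 (adjusted p = 0.0104), a call lost after the correction (0.13, adjusted p = 0.375), without combination replicate 3 (0.26, adjusted p = 0.123) and without SAHA replicate 2. Against BEZ-235 alone it was 0.33 ± 0.16, with a 95% interval of 0.00033 to 0.67 (adjusted p = 0.0803), -0.024 after the correction, and called without combination replicate 1 (adjusted p = 0.0163).

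DLL3 (ENSG00000090932, chromosome 19, 39498895 to 39508481, plus strand), the inhibitory Delta-like protein that is also a surface target in small cell lung cancer, was at 41.5, 49.6 and 60.7 CPM with the combination, 42.9, 37.7 and 36.9 CPM with BEZ-235, 32.7, 34.5 and 36.5 CPM with SAHA and 46.0, 53.4 and 39.7 CPM with DMSO. Only the SAHA libraries stood apart from DMSO without overlap. DLL3 fell with SAHA (-0.42 ± 0.13, adjusted p = 0.0134). This call was lost after the GC and length correction (-0.067, adjusted p = 0.431) and without DMSO replicate 2 or SAHA replicate 1 (adjusted p up to 0.0859). The combination was higher than SAHA alone by 0.55 ± 0.13 (adjusted p = 0.00149) and than BEZ-235 alone by 0.37 ± 0.13 (adjusted p = 0.0206). Both values turned round after the correction, to -0.18 (adjusted p = 0.0289) and -0.28 (adjusted p = 0.00215). The call against BEZ-235 was also lost without BEZ-235 replicate 2, BEZ-235 replicate 3 or combination replicate 3 (0.22 without the last, adjusted p = 0.140). Against DMSO, DLL3 had a log2 fold change of 0.13 ± 0.13 with the combination (95% interval -0.14 to 0.40, adjusted p = 0.390), which was -0.25 after the correction (adjusted p = 0.00352), and of -0.24 ± 0.13 with BEZ-235 (95% interval -0.52 to 0.030, adjusted p = 0.128), which passed without DMSO replicate 3 (adjusted p = 0.0382). The direction of DLL3 with the combination thus differed between the values as counted and after the correction in all 3 comparisons.

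HES1 (ENSG00000114315, chromosome 3, 194136145 to 194138732, plus strand) is the classical direct target of RBPJ and the Notch intracellular domain. Its promoter is printed because it carries those sites: the 250 bases before the RefSeq start on GRCh38.p14, chr3:194135898-194136147, plus strand, with the RBPJ core TGGGAA in capitals.
HES1 promoter: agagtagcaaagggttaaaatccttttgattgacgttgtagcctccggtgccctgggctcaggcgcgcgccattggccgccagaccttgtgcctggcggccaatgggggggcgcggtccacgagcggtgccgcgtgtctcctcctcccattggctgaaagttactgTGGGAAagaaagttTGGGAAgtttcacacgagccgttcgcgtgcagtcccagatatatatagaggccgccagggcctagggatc
The RBPJ core was searched as TGGGAA on both strands in the promoters of the 7 members that matched the RefSeq table, all but DLL1, DLL3 and HEY1. It was found in HES1 alone, where 2 matches begin 84 and 70 bases before the start, and in 20.8% of the 35116 promoters of the same length. The N-box, at which HES proteins bind, was searched as CACNAG on both strands and was found in 2 of the 7, with 3 matches in HES1 beginning 165, 132 and 58 bases before the start and 1 in NOTCH3 at 211 bases, and in 32% of all promoters. No N-box match overlapped an RBPJ core, and a match is a description of the letters, not of binding. HES1 was at 3.93, 4.24 and 4.87 CPM with the combination, 3.75, 4.01 and 2.58 CPM with BEZ-235, 6.47, 6.20 and 6.34 CPM with SAHA and 6.05, 5.74 and 5.24 CPM with DMSO. Both groups with BEZ-235 lay below all SAHA and DMSO libraries, the SAHA libraries lay above all DMSO libraries, and the libraries of BEZ-235 alone held 60 to 75 HES1 counts each. HES1 fell with BEZ-235 against DMSO (-0.73 ± 0.17, adjusted p = 0.00182) and was lower with the combination than with SAHA alone (-0.54 ± 0.16, adjusted p = 0.00884). With the combination against DMSO the log2 fold change was -0.38 ± 0.17, with a 95% interval of -0.73 to -0.031 (adjusted p = 0.0537), just short of the threshold. It passed after the GC and length correction (-0.43, adjusted p = 0.0238) and without any 1 of DMSO replicate 3, BEZ-235 replicates 1, 2 and 3, SAHA replicate 1 and combination replicate 3 (adjusted p down to 0.0244). SAHA against DMSO gave 0.16 ± 0.16, with a 95% interval of -0.17 to 0.49 (adjusted p = 0.443). The combination against BEZ-235 gave 0.35 ± 0.17, with a 95% interval of -0.017 to 0.71 (adjusted p = 0.0952).

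HEY1 (ENSG00000164683, chromosome 8, 79764010 to 79767863, minus strand), a repressor induced by Notch in many tissues, was at 37.3, 33.6 and 34.2 CPM with the combination, 21.3, 19.4 and 21.0 CPM with BEZ-235, 45.8, 49.8 and 56.3 CPM with SAHA and 52.4, 50.1 and 45.8 CPM with DMSO. The BEZ-235 libraries were the lowest and the combination libraries came next, without overlap with any other group, while the SAHA and DMSO libraries overlapped. HEY1 fell with the combination (-0.50 ± 0.092, adjusted p = 0.000168) and with BEZ-235 (-1.27 ± 0.095, adjusted p = 1.54e-08) against DMSO. Its value for SAHA was 0.036 ± 0.089, with a 95% interval of -0.15 to 0.23 (adjusted p = 0.776). The combination was 1.71-fold higher than BEZ-235 alone (0.77 ± 0.10, adjusted p = 4.19e-06) and lower than SAHA alone (-0.53 ± 0.091, adjusted p = 0.000103). HEY1 has the lowest GC content of the 10 genes, and these 4 calls were kept after the correction, at -0.43, -1.26, 0.83 and -0.46 in the same order. The genes most like it over the 12 libraries were LZTS1 (r = 0.984), MICAL2 (r = 0.982) and CCND3, which encodes cyclin D3 (r = 0.982).

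HES6 (ENSG00000144485, chromosome 2, 238238267 to 238240662, minus strand), the family member that opposes HES1 in mouse, has the GC-richest transcript of the 10 genes. It was at 6.21, 9.37 and 11.5 CPM with the combination, 4.66, 3.63 and 3.14 CPM with BEZ-235, 11.97, 13.8 and 12.8 CPM with SAHA and 15.3, 17.7 and 11.3 CPM with DMSO. The BEZ-235 libraries lay below all others, the SAHA and DMSO libraries overlapped, and the combination libraries lay above those of BEZ-235 and below those of SAHA, with the highest of them just above the lowest DMSO library. HES6 fell with BEZ-235 against DMSO by 1.96 on the log2 scale (SE 0.22, adjusted p = 2.88e-06), as counted the lowest estimate among the 10 genes in that comparison. After the GC and length correction it was at -1.62, close to NOTCH3 at -1.61. With the combination the log2 fold change was -0.70 ± 0.20 (adjusted p = 0.00670), and -1.19 after the GC and length correction. The combination was higher than BEZ-235 alone by 1.26 ± 0.23 (adjusted p = 0.000207), a value of 0.43 after the correction (adjusted p = 0.00664). Against SAHA alone it was lower by 0.51 (SE 0.20, adjusted p = 0.0395). That call was lost without SAHA replicate 2, SAHA replicate 3, combination replicate 1 (-0.32, adjusted p = 0.142) or combination replicate 2, and the corrected value was -1.46. SAHA against DMSO gave -0.19 ± 0.19, with a 95% interval of -0.61 to 0.22 (adjusted p = 0.450), and the correction turned it to 0.27 (adjusted p = 0.0326).

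**Figure D3:**
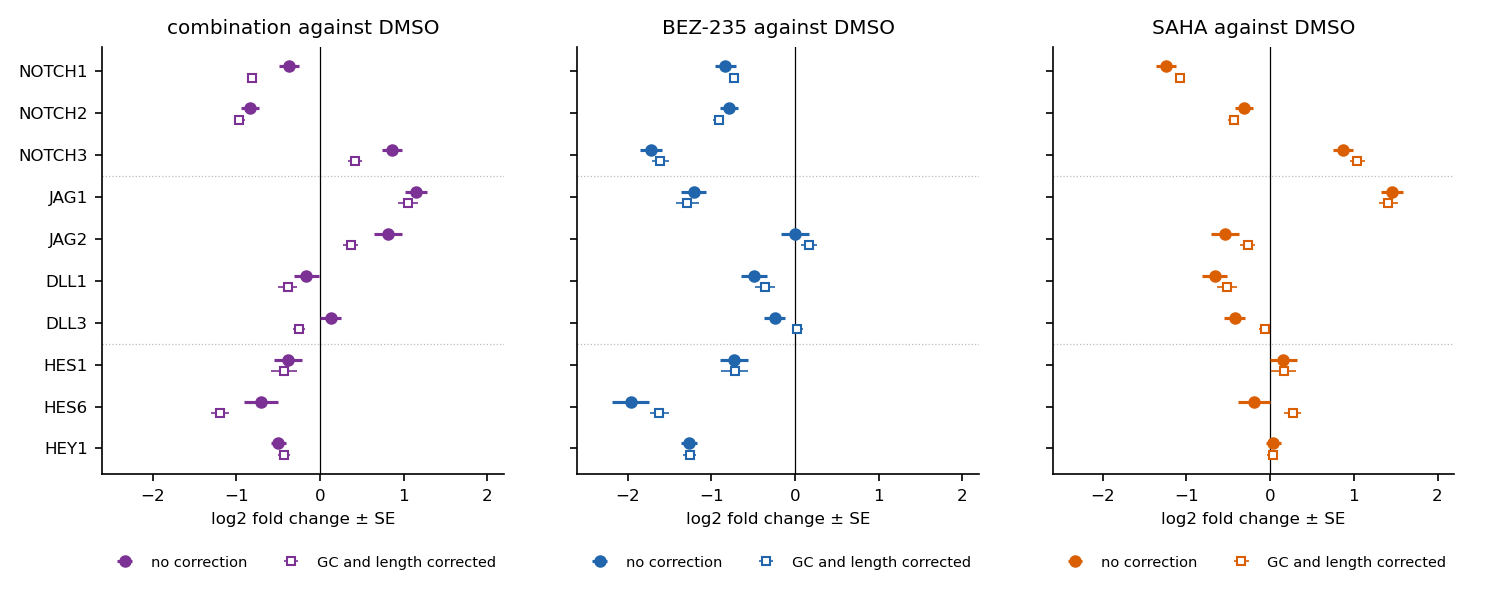
Points give the log2 fold change of each of the 10 genes for the combination, BEZ-235 and SAHA, each against DMSO, with bars for 1 SE, filled as counted and open after the GC and length correction. NOTCH3 and JAG1 lie above 0 with the combination and SAHA and below 0 with BEZ-235, and DLL3 with the combination is at 0.13 as counted and at -0.25 after the correction.

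Whether SAHA acted differently in the presence of BEZ-235 was tested by the interaction, the log2 SAHA effect with BEZ-235 (combination against BEZ-235) minus the log2 SAHA effect without it (SAHA against DMSO). Those effects rest on separate libraries. In 8 of the 10 genes the interaction passed, and it was positive in all 8, where 38.4% of all tested genes passed and 18.9% were positive. NOTCH1 was higher with SAHA on top of BEZ-235 (0.47 ± 0.12) and lower with SAHA on its own (-1.24 ± 0.12), an interaction of 1.71 ± 0.17 (adjusted p = 1.68e-05). The rise on top of BEZ-235 was not kept after the GC and length correction (-0.086, adjusted p = 0.211). NOTCH3 rose more with SAHA on top of BEZ-235 (2.58 ± 0.14) than with SAHA on its own (0.87 ± 0.12), an interaction of 1.71 ± 0.18 (adjusted p = 1.89e-05). JAG1 behaved likewise with 0.90 ± 0.20 (adjusted p = 0.00223). HEY1 had a SAHA effect of 0.77 ± 0.10 with BEZ-235 and 0.036 ± 0.089 without it, an interaction of 0.73 ± 0.13 (adjusted p = 0.000627). For the ligands JAG2, DLL1 and DLL3 the interactions were 1.34 ± 0.24 (adjusted p = 0.000887), 1.00 ± 0.22 (adjusted p = 0.00237) and 0.79 ± 0.18 (adjusted p = 0.00302), and for HES6 the value was 1.45 ± 0.30 (adjusted p = 0.00174). HES1 and NOTCH2 had interactions of 0.19 ± 0.23 (95% interval -0.31 to 0.68, adjusted p = 0.554) and 0.26 ± 0.15 (95% interval -0.050 to 0.58, adjusted p = 0.173).

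The GC and length correction lowered the interactions of the GC-rich genes. It gave 0.99 for NOTCH1, 0.99 for NOTCH3, 0.48 for JAG2 (adjusted p = 0.0153) and 0.49 for DLL1 (adjusted p = 0.0484), while the calls for HES6 (0.16, adjusted p = 0.552) and DLL3 (-0.21, adjusted p = 0.128) were lost. JAG1 and HEY1, of moderate GC content, were at 0.93 and 0.80, and NOTCH2 passed at 0.39 (adjusted p = 0.0107). After the correction 7 of the 10 genes passed, all positive, where 20.1% of all tested genes passed and 9.56% were positive. NOTCH2 also passed as counted without DMSO replicate 2 (adjusted p = 0.0124).

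**Figure D4:**
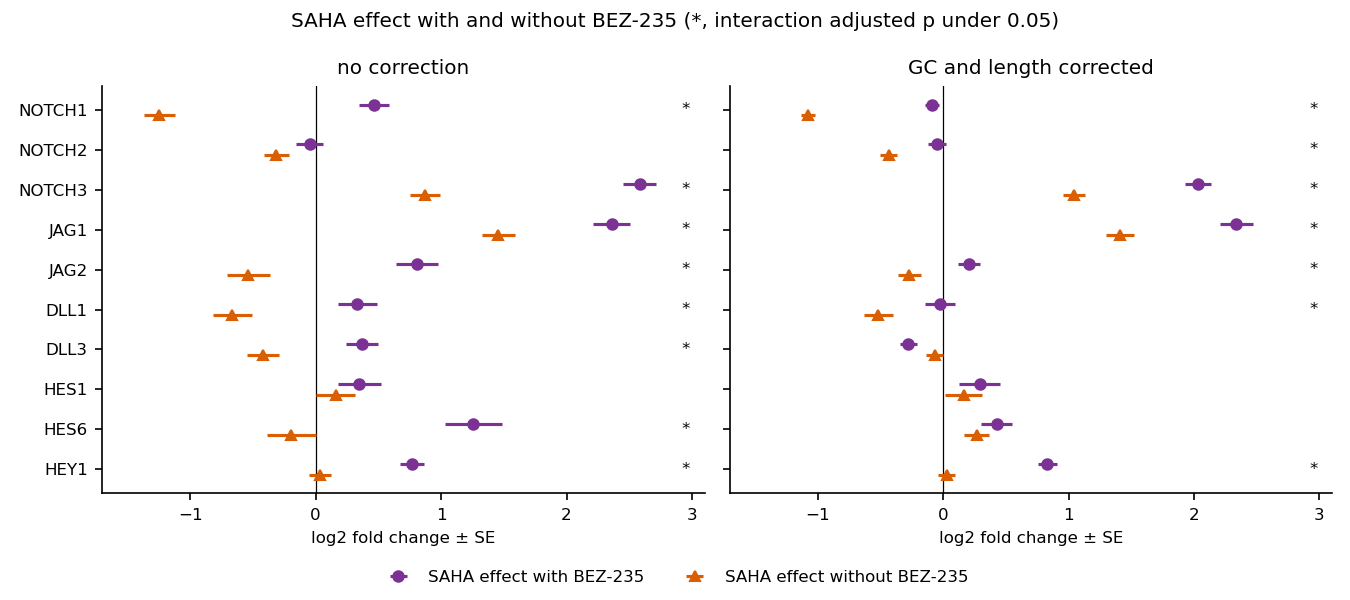
For each of the 10 genes the log2 SAHA effect with BEZ-235 (combination against BEZ-235) is plotted beside that without it (SAHA against DMSO), with bars for 1 SE, as counted on the left and after the GC and length correction on the right, and a star marks an interaction that passed. The value with BEZ-235 is the higher of the pair for every gene as counted. For NOTCH1 the pair is 0.47 with BEZ-235 and -1.24 without it as counted, and -0.086 and -1.07 after the correction.

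The rest of the pathway was read from 6 further lists, each gene counted by the same test, and the counts are set against the shares of all tested genes given above. Of 7 further receptors and ligands in the table, 6 were tested. With the combination 2 rose and 2 fell, with BEZ-235 1 rose and 2 fell, and with SAHA 2 rose and 1 fell, all against DMSO. These counts were the same after the GC and length correction. DNER, a neuronal noncanonical ligand, rose by a log2 fold change of 3.62 ± 0.38 with the combination, 2.03 ± 0.41 with BEZ-235 and 3.32 ± 0.38 with SAHA, although its level reached only 3.82 CPM. NOTCH4, a receptor best known from endothelium, fell by 1.98 with the combination, 1.13 with BEZ-235 and 1.35 with SAHA. DLK1, a ligand-like protein that lacks the Notch-activating domain, had log2 fold changes of -1.40 ± 0.20 with the combination and -1.78 ± 0.21 with BEZ-235, and CNTN1, a contactin, had 1.03 ± 0.090 with the combination and 1.40 ± 0.090 with SAHA. After the correction CNTN1 was at 1.49 with the combination and 1.37 with SAHA, so the order of these treatments turned round.

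Of 13 tested genes of receptor glycosylation and cleavage, 3 rose and 6 fell with the combination, 4 rose and 3 fell with BEZ-235, and 4 rose and 3 fell with SAHA. The correction gave 5 higher and 4 lower with the combination, 6 and 3 with BEZ-235, and 4 and 3 with SAHA. The balance with the combination thus turned round. LFNG, the Fringe enzyme that alters which ligands a receptor answers to, fell by 2.29 with the combination, 1.37 with BEZ-235 and 1.85 with SAHA. LFNG was low, however, at 3.55 to 4.14 CPM with DMSO and 0.64 to 0.86 CPM with the combination. FURIN, which cuts the Notch precursor, had a log2 fold change of 1.30 ± 0.13 and the Fringe gene RFNG one of 1.08 ± 0.13 with the combination, whereas POGLUT1, which adds O-glucose to the receptor, had -0.85 ± 0.12 with the combination and 0.54 ± 0.11 with BEZ-235. After the GC and length correction RFNG was at 0.63 and POGLUT1 at -0.53 with the combination. Among the gamma-secretase subunits, PSENEN was at -0.54 ± 0.094 with BEZ-235, and APH1B was at 0.66 ± 0.12 and PSEN2 at -0.53 ± 0.078 with SAHA.

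Of 13 genes of endocytosis and turnover, 7 rose and 3 fell with the combination, 5 rose and 4 fell with BEZ-235, and 6 rose and 2 fell with SAHA. Corrected counts were 8 higher and 2 lower with the combination, 5 and 4 with BEZ-235, and 7 and 3 with SAHA. The Deltex genes DTX1 and DTX4, regulators of receptor trafficking, had log2 fold changes of 1.95 ± 0.13 and 1.99 ± 0.17 with the combination, and FBXW7, part of the ubiquitin ligase that removes the Notch intracellular domain, had -0.82 ± 0.090. MIB1, the ligase that lets ligands be endocytosed, was at -0.49 ± 0.12 with the combination, a call lost after the GC and length correction (-0.043, adjusted p = 0.591). With BEZ-235 the called genes of smallest p were DTX3 at 0.41 ± 0.088 and ITCH at 0.32 ± 0.10 upward and the kinase gene AAK1 at -0.42 ± 0.093 and NUMBL, a relative of the Notch inhibitor NUMB, at -0.39 ± 0.094 downward. The ITCH call was lost without DMSO replicate 2 or BEZ-235 replicate 3. SAHA gave DTX1 at 0.77 ± 0.13, the ligand ubiquitin ligase NEURL1B at 0.47 ± 0.077, NUMBL at -0.88 ± 0.094 and DTX3 at -0.47 ± 0.088. The correction moved NUMBL with BEZ-235 to -0.23 and DTX3 with SAHA to -0.31.

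Of 18 nuclear genes, 7 rose and 8 fell with the combination, 7 rose and 5 fell with BEZ-235, and 4 rose and 4 fell with SAHA. Corrected counts were 7 higher and 9 lower with the combination, 10 and 5 with BEZ-235, and 6 and 8 with SAHA. RBPJ itself fell with the combination, to 75.3, 79.2 and 64.7 CPM, against 132, 122 and 154 CPM with DMSO (log2 fold change -0.90 ± 0.10, and -0.44 after the correction). TLE1, a Groucho corepressor used by HES and HEY proteins, rose with the combination (1.29 ± 0.14) and SAHA (1.02 ± 0.13) and fell with BEZ-235 (-0.98 ± 0.15). TLE4 was at 0.93 ± 0.067 with the combination and 0.64 ± 0.067 with SAHA. The Mastermind coactivator MAML2 was at -0.87 ± 0.14 with BEZ-235, where the corepressor genes TLE3 and CIR1 were at 0.68 ± 0.083 and 0.76 ± 0.11. Of the acetyltransferases, KAT2B was at -0.51 ± 0.11 with the combination and KAT2A and CREBBP were at -1.13 ± 0.11 and -0.60 ± 0.081 with SAHA.

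Of 14 further target genes, 8 were tested, of which 3 rose and 1 fell with the combination, 4 rose and 1 fell with BEZ-235, and 3 rose and 2 fell with SAHA. The GC and length correction altered only the combination, to 3 higher and 2 lower. HEYL rose in each treatment, by 2.57 ± 0.20 with the combination, 1.95 ± 0.20 with BEZ-235 and 1.42 ± 0.20 with SAHA, opposite in sign to HEY1 with the combination and BEZ-235. HEYL was low, however, at 1.10 to 1.79 CPM with DMSO, where HEY1 was at 45.8 to 52.4 CPM. HES7, known from the segmentation clock, had log2 fold changes of 1.99 ± 0.24 with the combination and 1.25 ± 0.24 with SAHA. Its level with DMSO was only 0.84 to 1.57 CPM. CD44, a surface protein of mesenchymal cells, was at 1.37 ± 0.078 with BEZ-235 and -0.47 ± 0.077 with SAHA. CCND1, which encodes cyclin D1, was at -0.44 ± 0.089 with the combination and -0.42 ± 0.089 with BEZ-235, and BHLHE40 at -0.94 ± 0.13 with SAHA. Of 15 proneural and related genes 11 were tested, with NEUROG1, NEUROD1 and NEUROD4 at 0 in every library, and 3 rose and 3 fell with the combination, 3 rose and 5 fell with BEZ-235, and 2 rose and 2 fell with SAHA. Their corrected counts were 3 higher and 4 lower with the combination, 3 and 4 with BEZ-235, and 4 and 1 with SAHA. MYT1, a zinc finger gene of differentiating neurons, rose in each treatment, by 1.57 ± 0.12 with the combination, 0.91 ± 0.13 with BEZ-235 and 0.59 ± 0.12 with SAHA. The inhibitors of proneural factors ID2 and ID3 were at 0.79 ± 0.085 and -0.93 ± 0.15 with BEZ-235, ID2 at 0.40 ± 0.085 with the combination and ID4 at 1.30 ± 0.22 with SAHA. The partner genes TCF4 and TCF12 were at -1.05 ± 0.10 and -0.43 ± 0.072 with the combination, with the TCF12 call lost after the correction (-0.11, adjusted p = 0.0873). With the combination the corrected TCF4 value was -0.63. TCF3 (-0.42 after the correction) and NEUROG2 were at -0.65 ± 0.11 and -0.44 ± 0.17 with SAHA, where the NEUROG2 call (adjusted p = 0.0415) was lost under most settings tried. Among the genes named from the 6 lists the adjusted p was at most 0.00205 with the combination, 0.0131 with BEZ-235 and 0.0415 with SAHA.

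Of 12 mesenchymal neuroblastoma markers, MAML2 and CD44 among them, 2 rose and 7 fell with the combination, 3 rose and 4 fell with BEZ-235, and 4 rose and 3 fell with SAHA, each against DMSO. Of the 13 adrenergic markers, 7 rose and 3 fell with the combination, 6 rose and 3 fell with BEZ-235, and 2 rose and 4 fell with SAHA. In these 3 comparisons 64.4%, 50.9% and 43.1% of all tested genes passed, and 31.2%, 25.4% and 20.9% fell. Of all tested genes 33.2% rose with the combination and 22.2% with SAHA, and with BEZ-235 50.1% of the genes that passed rose. With the GC and length correction 7 adrenergic markers were higher and 5 lower with the combination. The counts were 9 and 3 with BEZ-235 and 5 and 3 with SAHA, so the balance with SAHA turned round. Mesenchymal counts were then 2 higher and 6 lower, 3 and 4, and 4 and 4 in the same order. The corrected shares of all tested genes that passed were 65.7%, 56.4% and 49.8%. Upward they were 35.3% with the combination and 26.7% with SAHA, and with BEZ-235 51.0% of the genes that passed were higher. The summed mesenchymal level was 2476 to 2856 CPM with the combination, 1818 to 1937 with BEZ-235, 2404 to 2561 with SAHA and 1880.4 to 2057 with DMSO. VIM, which encodes vimentin, made up most of it, at 2066 to 2485 CPM with the combination and 1329 to 1558 CPM with DMSO, so the sum was higher with the combination although 7 of the 12 markers fell.

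**Figure D5:**
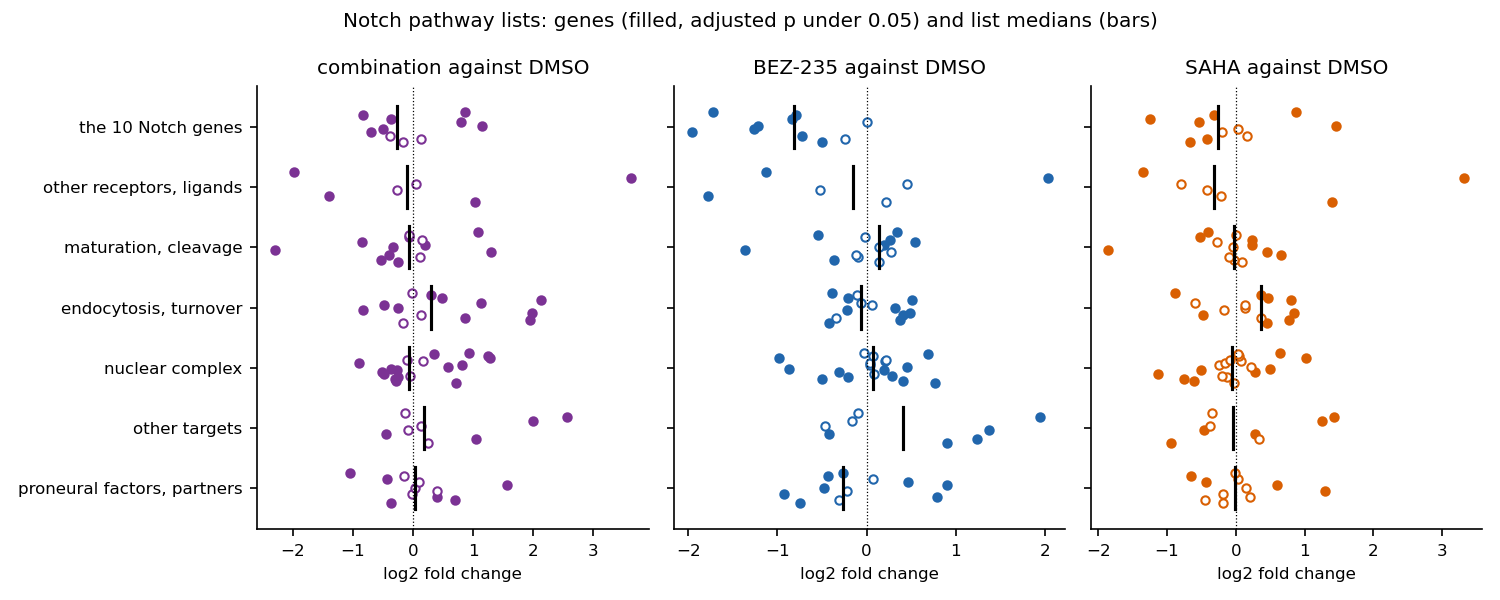
Each point is the log2 fold change of 1 gene for the combination, BEZ-235 or SAHA against DMSO, grouped by the 10 genes and the 6 further pathway lists, with a line at each list's median. As counted, the 10 genes have medians of -0.26 with the combination, -0.81 with BEZ-235 and -0.25 with SAHA. Each of the 6 further lists spreads to both sides of 0. So do the 10 genes with the combination and SAHA, but with BEZ-235 only JAG2, at 0.0020, is not below 0.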

How the data were processed

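Polyadenylated RNA of NB-1 cells was sequenced in 12 libraries prepared with a stranded kit, per the labels' protocols. The authors aligned reads with STAR and counted genes with RSEM on hg38, per the submitters' processing notes. The sources used here do not give versions, annotation or strand setting. What the authors deposited is a table of expected counts, RSEM's estimates of reads per gene, unscaled, for 58051 Ensembl genes.

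Expected counts were rounded to whole numbers and fitted in edgeR 4.0.16 under R 4.3.3 (limma 3.58.1), with 4 group means over all 12 libraries, 8 residual degrees of freedom, TMM scaling (factors 0.981 to 1.03), filterByExpr and the robust quasi-likelihood test. The 17774 genes kept held at least 99.9% of counts, and p-values were adjusted over all of them, 2-sided, at 0.05. CPM are counts scaled by TMM-adjusted library totals, and CPM per kilobase divides by the merged exon length in GENCODE release 29, which matched 57447 identifiers. The GC and length correction fitted each library's deviation from the gene means by lowess (span 0.3) on transcript GC content and then on length, and entered it as an offset. At 17662944 to 79543539 counts per library, with a biological coefficient of variation of 10.6%, depth limits mainly JAG1 and HES1. The scripts were tested on simulated counts.

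Groups followed the treatment labels. The 10 members, the lists and the markers were chosen with earlier results of these data known. All members were named in every comparison. From each further list, the 2 called genes of smallest p in each direction were named per comparison against DMSO, apart from some that are not reported here. The 3 members with the largest F over the 4 groups were each given the 3 genes with the highest Pearson correlation. Promoters are RefSeq sequences of GRCh38.p14. The alternatives tried were RLE scaling, DESeq2 1.42.0, unrounded counts, no filter, a mean of at least 1 CPM, only the groups compared, a replicate block, the GC and length correction with and without the block, and leaving out each library.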

Additional observations from a re-analysis of the deposited data

Results flagged for a closer look

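For 8 of the 10 genes the log2 effect of SAHA differed with and without BEZ-235 by the interaction test of edgeR's quasi-likelihood fit. The differences, with BEZ-235 minus without, were 1.71 ± 0.17 for NOTCH1 (SE, adjusted p = 1.68e-05), 1.71 ± 0.18 for NOTCH3 (adjusted p = 1.89e-05), 1.45 ± 0.30 for HES6 (adjusted p = 0.00174) and 1.34 ± 0.24 for JAG2 (adjusted p = 0.000887). They were 1.00 ± 0.22 for DLL1 (adjusted p = 0.00237), 0.90 ± 0.20 for JAG1 (adjusted p = 0.00223), 0.79 ± 0.18 for DLL3 (adjusted p = 0.00302) and 0.73 ± 0.13 for HEY1 (adjusted p = 0.000627). After the GC and length correction the HES6 and DLL3 values were 0.16 and -0.21 and no longer passed. The corrected values were 0.99 for NOTCH1 and for NOTCH3, 0.48 for JAG2 and 0.49 for DLL1, which still passed (adjusted p at most 0.0484), and 0.93 for JAG1 and 0.80 for HEY1. With the replicate block as well, the DLL1 value no longer passed (0.48, adjusted p = 0.0724).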

How the results depend on the processing

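The GC and length correction was the setting that altered most. It moved the number of genes with a called interaction to 3571, and to 3065 together with the replicate block, against 6834 as counted. Without and with that block, the corrected log2 fold changes turned sign for DLL1 (combination against BEZ-235: -0.024 and -0.031), NOTCH1 (combination against BEZ-235: -0.086 and -0.088), HES6 (SAHA against DMSO: 0.27 and 0.26) and DLL3. For DLL3 they were 0.029 and 0.027 for BEZ-235 against DMSO, -0.28 and -0.28 for the combination against BEZ-235, -0.25 and -0.25 against DMSO, -0.18 and -0.18 against SAHA, and -0.21 and -0.21 for the interaction. JAG2 with BEZ-235 against DMSO, near 0 as counted, was -0.0095 under RLE scaling, -0.034 without a filter, -0.0075 with the replicate block, -0.018 in a fit of only the groups compared and -0.0086 in DESeq2. Leaving out 1 library at a time gave ranges across 0 for JAG2 with BEZ-235 against DMSO (-0.22 to 0.085), DLL3 with the combination against DMSO (-0.034 to 0.24), HEY1 with SAHA against DMSO (-0.047 to 0.10) and NOTCH3 with the combination against SAHA (-0.077 to 0.058), none of which was called. The other calls that a left-out library ended or added stand beside their results. The cause of these changes was not tested.

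Replicate numbers showed no sign of pairing the libraries: of 18 same-numbered pairs 1 had a correlation of deviations over 0.1 (range -0.16 to 0.13), and 1 of 12 libraries correlated best with its own number. These deviations carry the GC trend, which differs between replicates, so they cannot settle whether the numbers pair libraries. The replicate block ended the HES6 call for the combination against SAHA (-0.50, adjusted p = 0.0582). With the GC and length correction it also ended the DLL1 interaction (0.48, adjusted p = 0.0724) and the HES6 value for SAHA (adjusted p = 0.0501). RLE scaling brought HES1 with the combination against DMSO past the threshold (-0.39, adjusted p = 0.0462), and no filter did so for DLL3 with BEZ-235 against DMSO (-0.28, adjusted p = 0.0289). DESeq2, unrounded counts and the filter on a mean of 1 CPM changed no call of the 10 genes. JAG1 and HES1 had the fewest counts with BEZ-235, but the largest SE as counted was that of HES6. For BEZ-235 against DMSO it was 0.22 for HES6, beside 0.17 for HES1 and 0.15 for JAG1.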
